A study of Mus musculus with 22 samples.

Results

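The keratin-associated protein genes (Krtap) were followed across ear RNA-seq libraries of wild-type and Socs3 conditional knockout mice. They were taken as every gene whose symbol starts with Krtap followed by a digit, which gave 48 of the 21110 genes in the tables and left out Krtdap, a gene of another family. By the number in the symbol, 23 were high-sulfur genes, 19 were ultrahigh-sulfur genes and 6 were high glycine-tyrosine genes.

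Keratin-associated proteins are small proteins of the hair shaft. They fill the space between the keratin intermediate filaments of the shaft and, through disulfide bonds formed by their many cysteines, cross-link those filaments into a hard fibre. Their genes lie in clusters and are transcribed late in the differentiation of the cortex and cuticle of a growing hair, so the family is a marker of hair follicles in the growth phase, and follicles at rest make little of it. Socs3 is an inhibitor of cytokine signalling through the JAK and STAT3 pathway, and Stat3 acts in the keratinocytes of the follicle as well as in the epidermis.

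All mice were of the C57BL/6 strain. The knockout (cKO) lacks Socs3 in cells that express keratin 5, the keratin of basal keratinocytes and of the outer root sheath of the follicle, and no drug or other agent is named for either genotype. Mice were 2, 8 or 10 weeks old. There were 4 WT and 4 cKO libraries at 2 weeks, 3 WT and 4 cKO libraries at 8 weeks, and 3 WT and 4 cKO libraries at 10 weeks. The labels name keratinocytes as the source and ear as the tissue, and the RNA was extracted from ear specimens with no sorting step given, so each value is that of a whole piece of ear. The basal keratin Krt14 stood between 1430 and 4670 FPKM in every library. FPKM counts fragments per kilobase of transcript, scaled to the mapped fragments of the library. The labels do not say that replicates were separate animals, so the p-values describe how far these libraries spread, and that spread may be technical.

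Several features of the libraries bear on what follows. Relative sequencing depth, read from the step between low values, reached at most 1.73 times that of the shallowest library. Olfactory and vomeronasal receptor genes, which ear skin is not known to use, were above 0 FPKM for 34.9% to 74.2% of their number in the 6 WT libraries of 8 and 10 weeks and for 3.25% to 7.26% in the other 16 libraries. The median FPKM of the tested genes was 2.34 to 4.57 in WT at 8 weeks and 5.05 or more in the cKO libraries. Socs3 itself did not separate the genotypes as the labels would have it. It stood at 9.71 to 10.3 FPKM in WT and at 1.25 to 12.6 FPKM in cKO at 2 weeks, at 0.604 to 1.36 against 1.60 to 8.47 at 8 weeks, and at 2.02 to 4.81 against 29.8 to 47.7 at 10 weeks. The knockout is therefore called here the libraries labelled cKO, and each direction between genotypes rests on those labels.

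The sequence just upstream of the gene start is shown for 5 of the genes because they carry the levels described below: Krtap8-1 and Krtap15 were among the most abundant members at 2 weeks, and Krtap3-1, Krtap3-2 and Krtap3-3 are paralogs that parted from each other in adult ears. Each run gives the last 120 bases before the annotated start, 5′ to 3′ on the gene's strand, from RefSeq on GRCm38.p6, with the motif TATAAA in capitals where it occurs. The deposited values were made on mm9, so these positions describe the gene and not the reads.
Krtap8-1 (chr16:89487953-89488072, minus strand): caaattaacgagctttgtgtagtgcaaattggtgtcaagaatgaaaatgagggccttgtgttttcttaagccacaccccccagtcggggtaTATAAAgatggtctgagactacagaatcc
Krtap15 (chr16:88828889-88829008, plus strand): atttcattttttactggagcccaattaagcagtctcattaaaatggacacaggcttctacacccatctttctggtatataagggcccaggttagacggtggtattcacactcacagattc
Krtap3-1 (chr11:99566631-99566750, minus strand): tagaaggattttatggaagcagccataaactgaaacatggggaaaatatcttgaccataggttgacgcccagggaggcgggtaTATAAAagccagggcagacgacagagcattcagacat
Krtap3-2 (chr11:99556854-99556973, minus strand): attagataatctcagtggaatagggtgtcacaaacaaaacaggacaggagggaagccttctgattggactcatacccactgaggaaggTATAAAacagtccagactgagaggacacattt
Krtap3-3 (chr11:99550864-99550983, minus strand): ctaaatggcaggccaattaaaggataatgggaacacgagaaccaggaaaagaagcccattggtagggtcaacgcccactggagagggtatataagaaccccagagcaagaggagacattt

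The motif starts 29 bases before the gene start in Krtap8-1, 37 bases before it in Krtap3-1 and 32 bases before it in Krtap3-2. Those letters are not in the window of Krtap15 or Krtap3-3. Both of these windows hold tatataag instead, a spelling of the TATA box that the search for TATAAA does not count. Absence of TATAAA therefore does not mean absence of a TATA box, and the share given next is of that spelling alone. A promoter of 250 upstream bases was found for 42 of the 48 genes, and 34 of them (81.0%) held TATAAA on the gene's strand, against 7.59% of the 32851 promoters in the RefSeq table. A LEF/TCF motif (CTTTGAA or CTTTGAT, either strand) was in 19.0% of the Krtap promoters and 7.48% of all promoters. A HOXC13 motif (TTAATN or TTTATN followed by a pair of purines, either strand) was in 54.8% and 17.2%. It can overlap a TATA box. Base composition differed too: the median Krtap promoter was 59.2% A and T, and the median of all promoters 47.6%. Within the Krtap3 genes the 250 upstream bases were 53.0% to 54.6% identical over their alignment, while the coding sequences of Krtap3-2 and Krtap3-3 were identical over 297 bases. Krtap3-1 was 82.9% identical to either of them in its coding sequence.

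The wild-type ear at 2 weeks held the family at a high level, and a few genes carried most of it. Summed over the 48 genes, FPKM stood at 3722, 4196, 5597 and 4136 in the 4 libraries, which was 0.849% to 1.25% of all FPKM. Replicate 3 was the highest of the 4, and it held the highest value for 41 of the 46 genes that passed the filter described below. By their mean at 2 weeks, 16 genes stood at 100 FPKM or more, 21 between 10 and 100, 9 between 1 and 10, and 2 below 1, which were Krtap9-5 (0.413 FPKM) and Krtap13 (0.0639 FPKM).

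**Figure D1:**
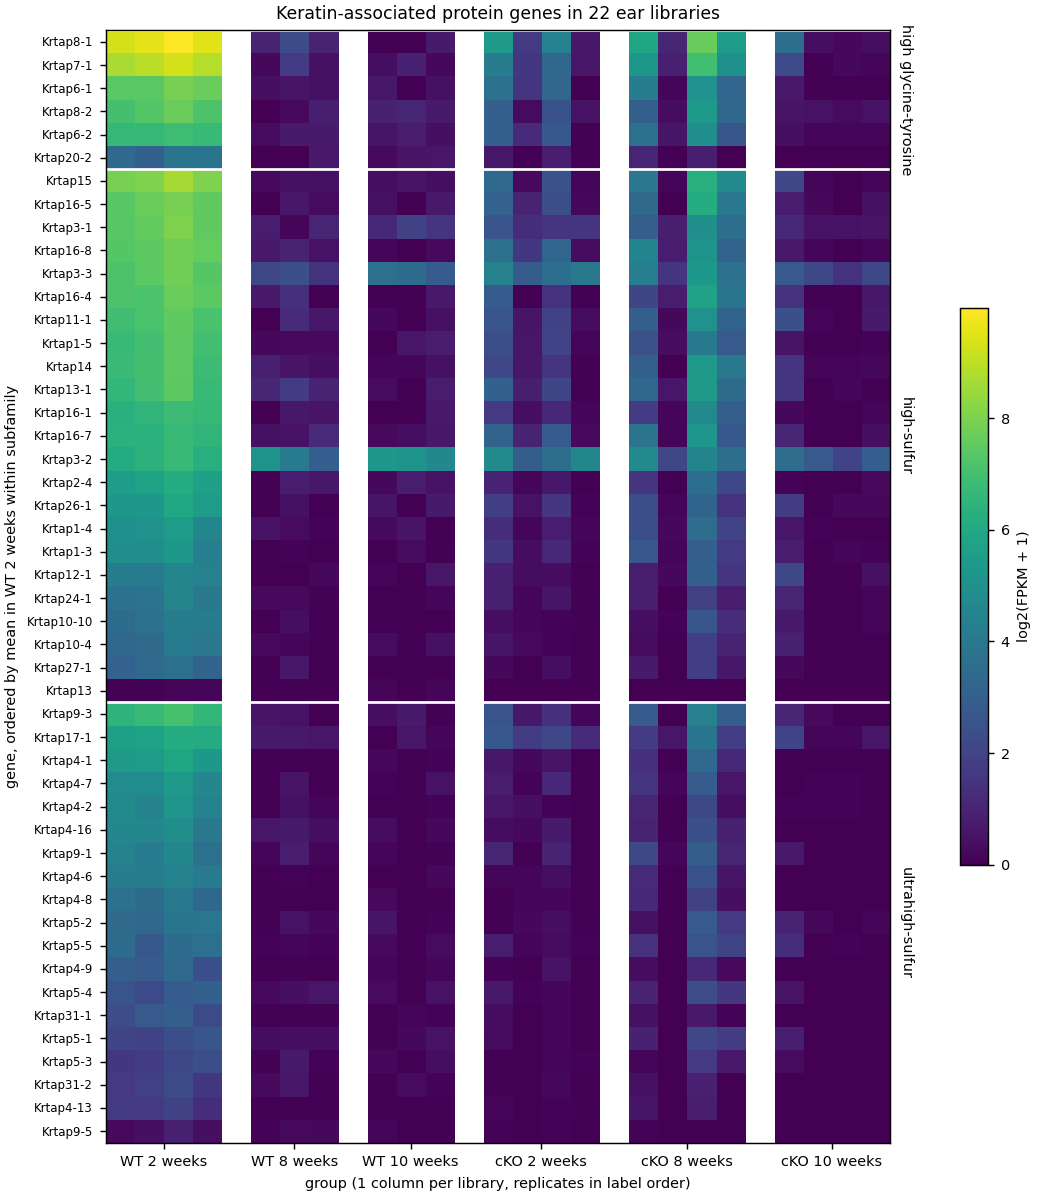
Level of each keratin-associated protein gene, as log2(FPKM + 1), in 22 libraries (columns, grouped by genotype and age) with genes in rows by subfamily and, within it, by mean in WT at 2 weeks. The 4 WT libraries of 2 weeks are bright for most of the 48 genes, the rest are darker, least so cKO replicates 1, 3 and 4 of 8 weeks and 1 and 3 of 2 weeks, and Krtap3-2 and Krtap3-3 stay visible in every group.

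The high glycine-tyrosine genes, whose products are rich in glycine and tyrosine rather than cysteine, led the order. Krtap8-1 was the most abundant member at 644, 762, 1001 and 728 FPKM in the 4 WT libraries of 2 weeks and carried 17.8% of the summed level. Krtap7-1 followed at 421, 489, 635 and 463 FPKM. Krtap6-1 stood at 169, 171, 244 and 208 FPKM. The order of these means was Krtap8-1 at 784 ± 153 FPKM, Krtap7-1 at 502 ± 92.8 and Krtap6-1 at 198 ± 35.2 (SD, n = 4), and every library kept that order.

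Among the high-sulfur genes Krtap15 led, at 243, 265, 389 and 263 FPKM in WT at 2 weeks. Krtap16-5 stood at 166, 212, 243 and 186 FPKM, and Krtap3-1 at 166, 189, 260 and 186 FPKM. Means of Krtap16-5 (202 ± 33.3), Krtap3-1 (200 ± 41.1), Krtap6-1 (198 ± 35.2) and Krtap16-8 (189 ± 27.2) lay within each other's spread. The ultrahigh-sulfur genes were lower. Krtap9-3 stood at 88.1, 106, 132 and 95.5 FPKM, Krtap17-1 at 50.4, 53.7, 71.0 and 68.6 FPKM, and Krtap4-1 at 40.6, 43.2, 57.9 and 38.4 FPKM. Krtap9-3 was the one ultrahigh-sulfur gene with a mean above 100 FPKM, at 105 ± 19.2. The Krtap5 genes, known from the cuticle of the hair, had means from 2.99 to 11.7 FPKM.

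By the number in the symbol, high-sulfur genes made up 51.0% to 51.7% of the summed level in the 4 WT libraries of 2 weeks, high glycine-tyrosine genes 39.5% to 40.2%, and ultrahigh-sulfur genes 8.56% to 9.47%. Present gene names change this split. Of the 48 symbols, 42 are in use in RefSeq, 5 are older symbols and 1 (Krtap16-1) is both a symbol in use and an older name of another gene. Krtap16-4, Krtap16-5, Krtap16-7 and Krtap16-8 are now named Krtap19-4, Krtap19-3, Krtap21-1 and Krtap6-5, all of high glycine-tyrosine families. Their coding sequences held 54.0% to 67.9% glycine and tyrosine codons, within the 29.9% to 69.2% of the 6 genes placed there by number. The ultrahigh-sulfur genes held 25.4% to 41.5% cysteine codons. Under the present names, high glycine-tyrosine genes carried 53.5% to 55.8% of the summed level at 2 weeks and high-sulfur genes 33.2% to 35.8%.

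All 47 genes with an annotated coding sequence have 1 exon. Of these, 21 lie on chromosome 11, 18 on chromosome 16, 5 on chromosome 7 and 3 on chromosome 10 of GRCm38. The reads were 50 bases long, and 29 of the 47 genes share at least 1 run of 50 bases with another Krtap transcript. For 13 of them such runs made up over 10% of the transcript: they reached 41.3% in Krtap3-3, 28.9% in Krtap3-2, 40.7% in Krtap31-2 and 39.1% in Krtap31-1. Values of these genes are uncertain to the extent that reads were split between copies.

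At 2 weeks, libraries labelled cKO held far less of the family than WT. Their summed FPKM was 228, 34.7, 126 and 44.6, which was 5.16% or less of the WT mean, and no library of either group came near the other. Krtap8-1 stood at 40.3, 2.26, 19.7 and 0.580 FPKM in the cKO libraries against 644 or more in WT. In bulk ear RNA, fewer cells of a type and less RNA per cell cannot be told apart. Other measures moved with this difference without overlap between the groups. Ribosomal protein genes took 10.5% to 10.9% of all FPKM in WT and 15.2% to 27.5% in cKO. The 8 genes of follicle stem cells and the outer root sheath summed to 2494 to 2619 FPKM in WT and 1250 to 1429 FPKM in cKO. By limma 7 of the 8 were called lower, where 27.1% of all tested genes were. The part of these measures in the result was not tested.

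Tests were made on log2(FPKM + 1) with limma over the 14139 genes that reached 1 FPKM in at least 3 libraries, which included 46 of the 48 members, and a gene was called at an adjusted p below 0.05. Of these 46, 17 passed only because of the WT libraries of 2 weeks, so a fall from those libraries was built into their inclusion. At 2 weeks 46 members were called lower and 0 higher, where 27.1% of all tested genes were called lower and 17.7% higher. Without the filter, 48 of 48 were called lower. The cKO and WT values did not overlap, with cKO lower, for 46 members and for 32.2% of all tested genes. The median change of the members was -4.32 and that of all tested genes -0.15 on the log2 scale.

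The 3 largest falls were those of abundant genes. Krtap15 stood at 9.55, 0.191, 4.52 and 0.0861 FPKM in the cKO libraries, and its change was -6.60 (SE 0.88, limma adjusted p = 1.18e-05). Krtap8-1 changed by -6.57 (SE 1.1, limma adjusted p = 0.000124). Krtap7-1, at 17.7, 2.03, 9.43 and 0.522 FPKM, changed by -6.50 (SE 0.90, limma adjusted p = 1.93e-05). All of these genes were highest in replicate 1 and second in replicate 3. A fixed 1 is added to each FPKM before the logarithm, which understates the change of low genes, so sizes are not compared between abundant and scarce members.

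The ultrahigh-sulfur genes fell as well. Krtap9-3 stood at 5.04, 0.544, 1.57 and 0.0980 FPKM in the cKO libraries and changed by -5.54 (SE 0.61, limma adjusted p = 7.98e-07). Krtap4-1 stood at 0.582, 0.150, 0.443 and 0 FPKM and changed by -5.16 (SE 0.41, limma adjusted p = 7.84e-09). Krtap17-1 kept more of its level, at 5.54, 2.39, 3.31 and 1.37 FPKM, with a change of -3.98 (SE 0.49, limma adjusted p = 4.07e-06). Its highest cKO library (5.54) was still far below its lowest WT library (50.4). Krtap3-2 and Krtap3-3 kept more of their level than the other genes named here. Krtap3-2 stood at 26.1, 6.70, 11.0 and 23.1 FPKM in the cKO libraries of 2 weeks and changed by -2.43 (SE 0.51, limma adjusted p = 0.00128). Krtap3-3 stood at 19.4, 6.37, 11.1 and 14.8 FPKM and changed by -3.75 (SE 0.52, limma adjusted p = 1.97e-05). Both were highest in replicate 1 and next in replicate 4, the library in which Krtap8-1, Krtap7-1 and Krtap15 were lowest, and neither overlapped with WT.

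**Figure D2:**
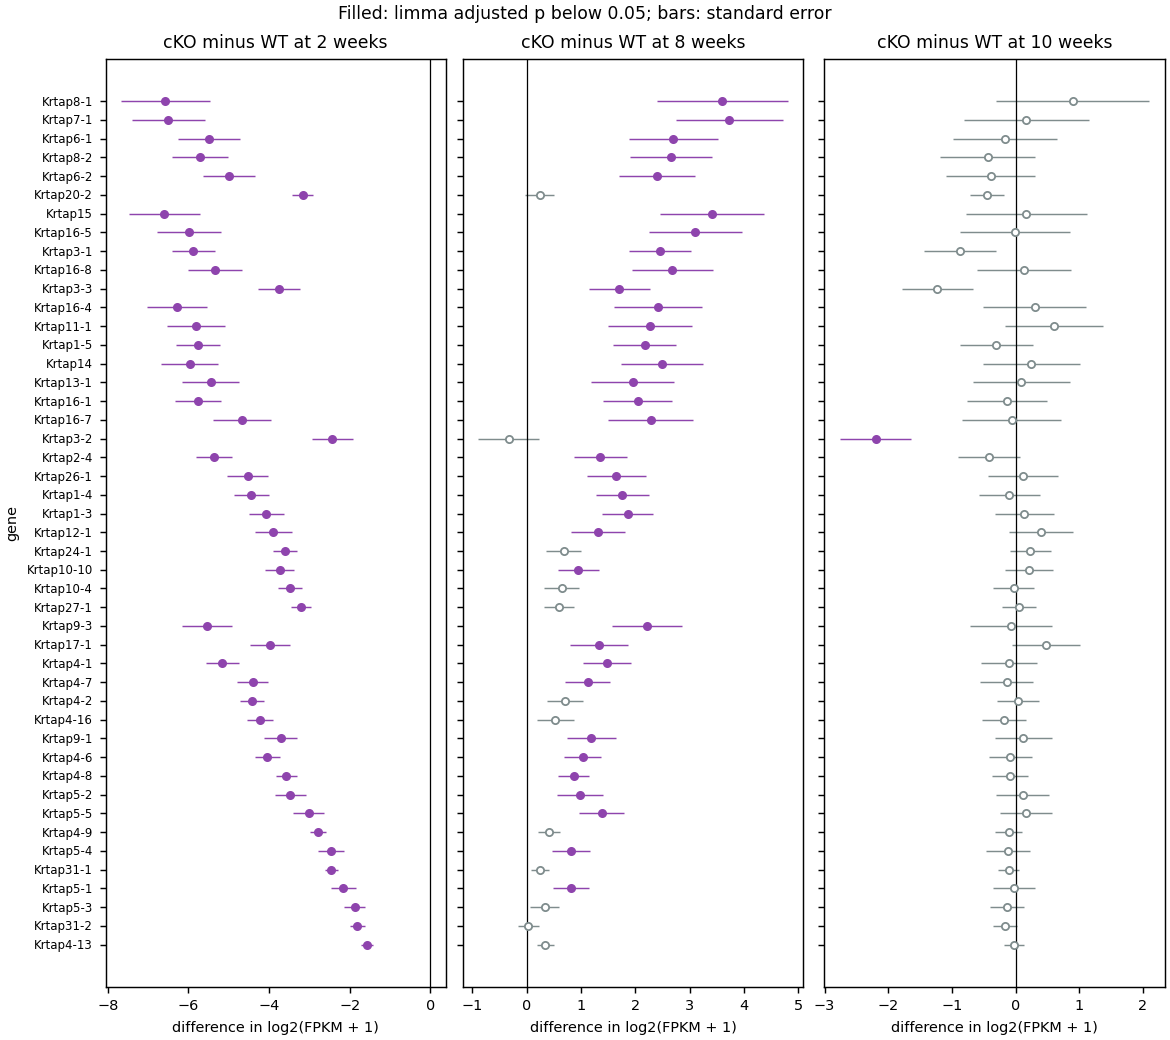
Difference between cKO and WT in log2(FPKM + 1) for the 46 tested genes at 2, 8 and 10 weeks (points, with standard errors as bars; filled points have a limma adjusted p below 0.05; each panel has its own x axis). At 2 weeks 46 points lie below 0, at 8 weeks 34 are called above 0, and at 10 weeks Krtap3-2 alone is called, below 0.

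The 4 cKO libraries of 2 weeks were not alike. For 37 of the 46 tested members, replicates 1 and 3 were both above replicates 2 and 4. In replicate 4, 23 of the 48 genes were listed at 0 and 4 reached 1 FPKM, and in replicate 1 these numbers were 3 and 24. Subfamily shares in replicates 1 and 3 were near those of WT, with 37.4% and 38.8% of the summed level in high glycine-tyrosine genes by number, while in replicate 4 that share was 3.35%.

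Wild-type ears lost the family between 2 and 8 weeks. Summed FPKM fell from a mean of 4413 ± 817 (SD, n = 4) to 47.3, 45.5 and 21.7 at 8 weeks, and stood at 59.5, 55.2 and 45.5 at 10 weeks. Between 2 and 8 weeks 46 members were called lower by limma, where 65.3% of all tested genes were called lower. The groups did not overlap for 46 members and for 66.0% of all tested genes. Of these 46, 17 passed the filter only because of the WT libraries of 2 weeks, so their fall was built into their inclusion. The other 29 passed without those libraries. With no filter, 48 of 48 members were called lower by limma. The members' median change was -4.79 and that of all tested genes -0.94. This comparison and the one between genotypes at 2 weeks share the WT libraries of 2 weeks. From 8 to 10 weeks 0 members were called in either direction, with 1 at an unadjusted p below 0.05, while 30.8% of all tested genes were called higher.

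Scaling each library by its median ratio to the others moved the median of all tested genes from 0.82 to 0.04 between genotypes at 8 weeks and from -0.94 to -0.08 between WT ages. With it, the genes called at 8 weeks went from 8801 higher and 506 lower to 2152 and 2423, and those between WT at 2 and 8 weeks from 1370 higher and 9229 lower to 3950 and 4561. The members' medians were 1.08 and -4.43 after scaling. Under that scaling limma called 45 members lower in WT at 8 weeks than at 2 weeks, with a change below 0 for 46. It called 46 members lower in cKO than in WT at 2 weeks, where 3669 of the 14139 tested genes were called lower.

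Krtap3-2 kept a larger part of its level in adult WT ears than its paralogs, although Krtap3-1, Krtap3-2 and Krtap3-3 were all called lower at 8 weeks than at 2 weeks. Krtap3-1, Krtap3-2 and Krtap3-3 together held 10.2% to 10.7% of the summed level in WT at 2 weeks, but 45.2% to 81.2% at 8 weeks and 72.2% to 87.2% at 10 weeks. Krtap3-2, the scarcest of them at 2 weeks (69.6, 84.8, 106 and 76.5 FPKM), stood at 34.2, 16.1 and 6.99 FPKM at 8 weeks and at 38.8, 34.4 and 24.5 FPKM at 10 weeks. Its change from 2 to 8 weeks was -2.32 (SE 0.56, limma adjusted p = 0.000888). Krtap3-1, at 166 to 260 FPKM in WT at 2 weeks, stood at 0.685, 0.139 and 1.04 FPKM at 8 weeks, a change of -6.97 (SE 0.57, limma adjusted p = 7.79e-09). Krtap3-3 lay between them, at 3.51, 4.41 and 1.76 FPKM at 8 weeks and 11.9, 10.4 and 6.51 FPKM at 10 weeks. The rank of the Krtap3 genes was thus Krtap3-1, Krtap3-3, Krtap3-2 in each WT library of 2 weeks and Krtap3-2, Krtap3-3, Krtap3-1 in each WT library of 8 and 10 weeks. Because Krtap3-2 and Krtap3-3 have the same coding sequence, only reads outside it can tell them apart.

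**Figure D3:**
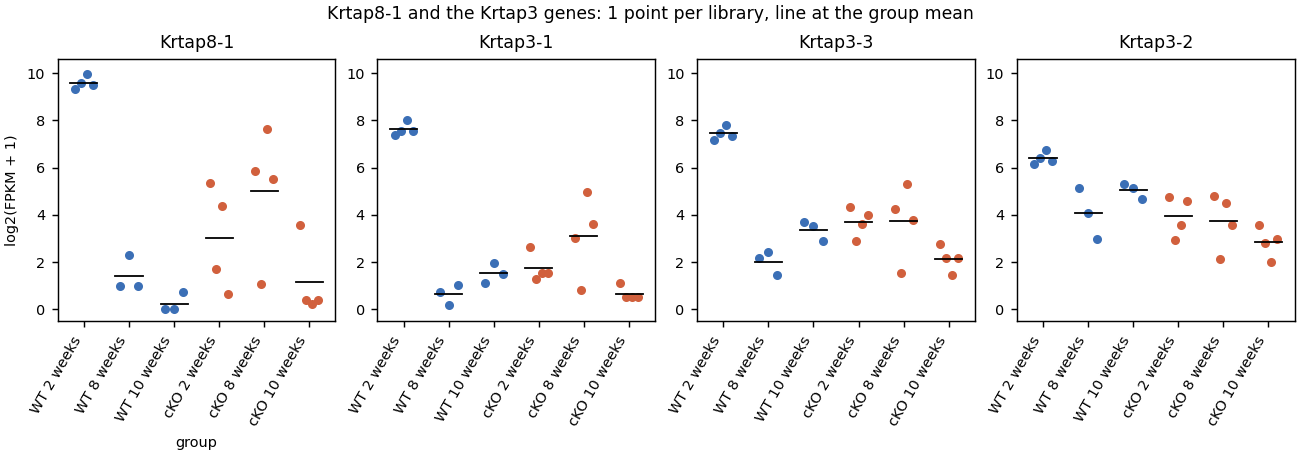
Level of Krtap8-1, Krtap3-1, Krtap3-3 and Krtap3-2 as log2(FPKM + 1) by group, with 1 point per library (blue WT, orange cKO) and a line at the group mean. Krtap8-1 and Krtap3-1 stand at 3.99 FPKM or less in adult WT ears, while Krtap3-2 stays at 6.99 FPKM or more there.

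At 8 weeks, libraries labelled cKO held more of the family than WT in 3 of 4 cases. Summed FPKM was 322, 12.7, 1098 and 289 in cKO and 21.7 to 47.3 in WT. Replicate 2 was lower than every WT library of that age, and replicate 3 reached 24.9% of the WT mean of 2 weeks. Of the 46 tested members, 34 were called higher and 0 lower by limma, where 62.2% of all tested genes were called higher. The values of the groups did not overlap, with cKO higher, for 2 members (Krtap1-3 and Krtap1-5, named after their values were seen) and for 45.5% of all tested genes. The members' median change was 1.36 and that of all tested genes 0.82.

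**Figure D4:**
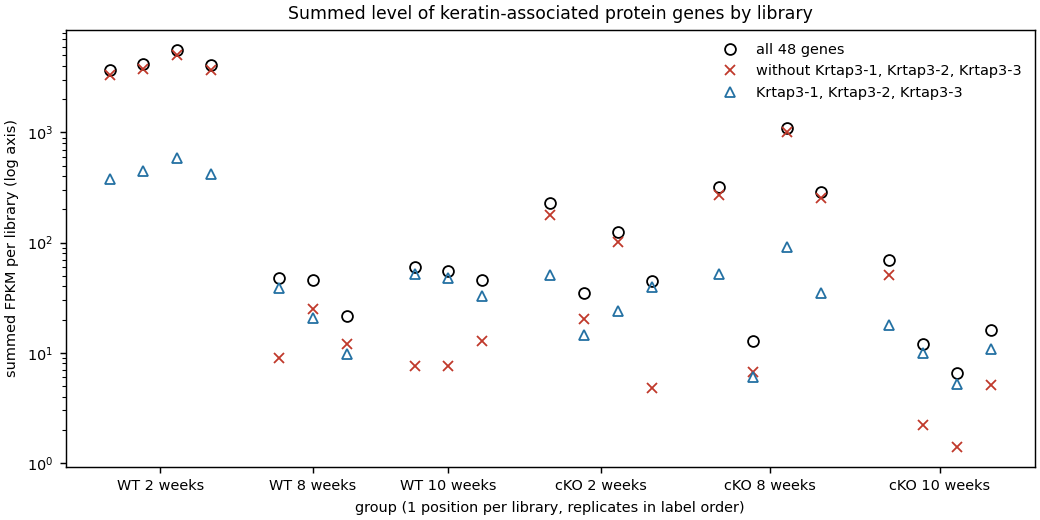
Summed FPKM per library on a log axis (22 libraries by group), for the 48 genes (circles), for the 3 Krtap3 genes (triangles) and for the other 45 (crosses). The 4 WT libraries of 2 weeks lie at 3722 or higher for the whole family, the cKO libraries of 8 weeks run from 12.7 to 1098, and in most adult WT libraries the triangles lie close to the circles.

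The high glycine-tyrosine genes Krtap8-1 and Krtap7-1 had the largest means of the members in cKO at 8 weeks. Their whole subfamily did not: Krtap20-2 had a mean of 0.464 FPKM there and was not called (change 0.24, limma adjusted p = 0.420). Krtap7-1 stood at 38.2, 0.837, 124 and 30.9 FPKM in cKO and at 0.147, 2.39 and 0.352 FPKM in WT, a change of 3.73 (SE 0.98, limma adjusted p = 0.00280). Krtap8-1 stood at 57.7, 1.12, 201 and 44.3 FPKM against 0.978, 3.99 and 0.980 in WT, a change of 3.60 (SE 1.2, limma adjusted p = 0.0111). Replicate 2 lay inside the WT range for both genes and the other cKO libraries far above it. Krtap8-1 missed the threshold after median-of-ratios scaling (2.90, limma adjusted p = 0.0687).

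Krtap6-1 stood at 17.2, 0.0895, 32.4 and 8.48 FPKM in cKO and 0.313, 0.426 and 0.377 FPKM in WT of that age (change 2.70, SE 0.82, limma adjusted p = 0.00765). The same 3 libraries stood out for the high-sulfur and ultrahigh-sulfur genes. Krtap15 stood at 14.3, 0.110, 76.7 and 26.5 FPKM in cKO and 0.193, 0.351 and 0.349 in WT, a change of 3.41 (SE 0.95, limma adjusted p = 0.00443). Krtap4-1 was listed at 0 in the 3 WT libraries and at 1.64, 0, 9.69 and 1.15 FPKM in cKO (change 1.48, SE 0.44, limma adjusted p = 0.00681). For 43 of 46 members replicate 2 was below the other 3 cKO libraries, and for 44 of 46 replicate 3 was the highest. Krtap17-1 (2.38, 0.501, 13.6 and 2.51 FPKM in cKO, change 1.33, limma adjusted p = 0.0326) was no longer called without any 1 of the WT replicates (0.0634, 0.0616 and 0.0859 without replicates 1, 2 and 3) or without cKO replicate 3 (0.143). Krtap3-3 lost its call (change 1.70, limma adjusted p = 0.0130) without WT replicate 3 (0.0733) or cKO replicate 3 (0.0548). Of all tested members Krtap3-2 had the lowest change, -0.33 (SE 0.56, limma adjusted p = 0.606), with 26.5, 3.41, 21.5 and 11.0 FPKM in cKO.

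The count at 8 weeks moved with single libraries and with scale. It was 19 without cKO replicate 3, 41 without cKO replicate 2, 19 after median-of-ratios scaling and 5 with array quality weights. Scaling moved the background too: of the 14139 tested genes 8801 were called higher before it and 2152 after it. The fall from 34 to 19 members therefore does not show a weaker result relative to all genes. Background shares for the other alternatives are not given. The 3 WT libraries of this age are all among those with many receptor genes above 0, so their part in the result cannot be told apart from genotype.

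Replicates 1, 3 and 4 of cKO at 8 weeks also differed by gene cluster, a pattern noticed after the values were seen and given without a test. In replicate 3 the median level as a percent of the WT mean of 2 weeks was 71.3% for the 5 Krtap5 genes on chromosome 7, 36.7% for the 3 Krtap10 and Krtap12 genes on chromosome 10, 25.5% for the 18 genes on chromosome 16 and 21.7% for the 18 genes on chromosome 11 other than Krtap3. In replicate 4 these values were 32.3%, 9.63%, 5.75% and 3.39%, and in replicate 1 they were 16.8%, 2.18%, 7.12% and 6.59%. The Krtap5 genes stood highest of the 4 clusters in these 3 libraries. This order was not particular to them. It also held in cKO replicates 1 (5.48%) and 4 (0.317%) of 2 weeks and in cKO replicate 1 of 10 weeks (7.91%). Every WT library of 8 and 10 weeks had it too. It did not hold in cKO replicates 2 and 3 of 2 weeks or replicates 2, 3 and 4 of 10 weeks. In cKO replicate 2 of 8 weeks the order did not hold either: the medians were 0% for the Krtap5 genes, 0.518% on chromosome 10, 0.131% on chromosome 16 and 0% on chromosome 11. In human hair, KAP5 and KAP10 genes are known from the cuticle, and KAP4 and KAP9 genes from the cortex. These families cover only some members of the clusters, and the other families are not placed by layer here. The medians therefore do not stand for layers. A link of the medians to these layers was not tested. In cKO replicate 1 of 8 weeks the chromosome 10 genes were the lowest of the 4 clusters. There Krtap5-2 (3.08%) and Krtap5-3 (4.77%) stood below the medians on chromosomes 11 and 16. Krtap5-1 (23.1%), Krtap5-4 (16.8%) and Krtap5-5 (17.9%) stood above them. The Krtap5 genes are also scarce, and in adult WT ears their median was already 0.118% to 6.90% against 0.711% or less for the cluster on chromosome 11.

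**Figure D5:**
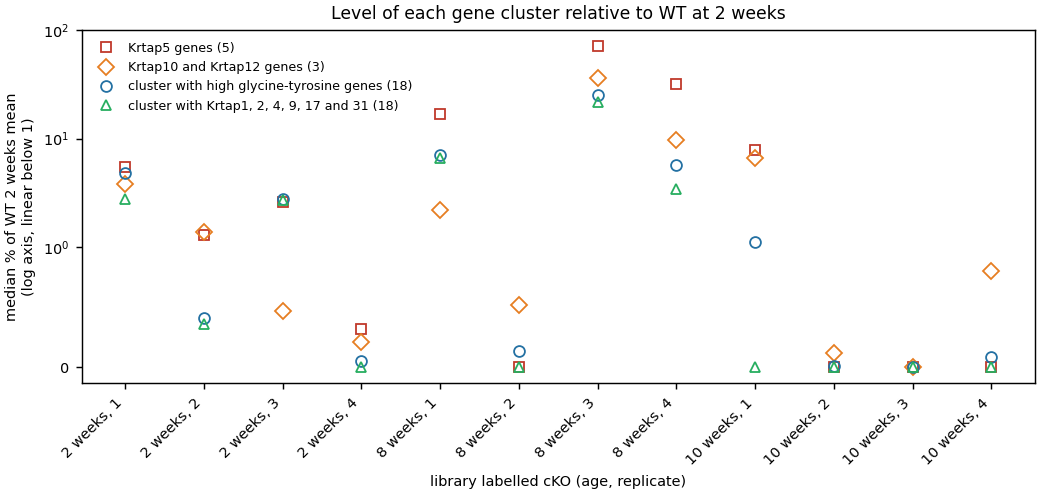
Median level of each gene cluster as a percent of the WT mean of 2 weeks in the 12 libraries labelled cKO, on an axis that is logarithmic above 1 and linear below (squares chromosome 7, diamonds chromosome 10, circles chromosome 16, triangles chromosome 11; Krtap3 left out). The squares are the highest of the 4 clusters in replicates 1, 3 and 4 of 8 weeks, at 16.8%, 71.3% and 32.3%. They are so too in replicates 1 and 4 of 2 weeks and replicate 1 of 10 weeks.

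Within the libraries labelled cKO, the change from 2 to 8 weeks was not called for any member. By limma 0 members were called in either direction, where 0.382% of all tested genes were called higher, and 27 had an unadjusted p below 0.05. The median change of the members was 1.06. Without cKO replicate 2 of 8 weeks 25 members were called higher, and with array quality weights 26 members were called.

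From 8 to 10 weeks the libraries labelled cKO went down again. Their summed level at 10 weeks was 1.57%, 0.273%, 0.149% and 0.362% of the WT mean of 2 weeks. By limma 15 members were called lower and 0 higher, where 1.08% of all tested genes were called lower, and the members' median change was -1.33 against -0.00 for all tested genes. Krtap7-1 fell from a mean of 48.4 ± 52.7 to 3.78, 0, 0.145 and 0.135 FPKM (change -3.87, SE 0.90, limma adjusted p = 0.0189). Krtap3-1 fell to 1.16, 0.419, 0.419 and 0.422 FPKM (change -2.45, SE 0.53, limma adjusted p = 0.0112). Krtap8-1, at 11.0, 0.298, 0.161 and 0.300 FPKM, did not pass (change -3.89, SE 1.1, limma adjusted p = 0.0525). This count rested on single libraries: it was 2, 34, 2 and 5 without cKO replicates 1, 2, 3 and 4 of 8 weeks, 2, 2 and 7 without replicates 2, 3 and 4 of 10 weeks, and 4 with no filter.

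The difference between genotypes itself changed with age. Comparing the difference at 8 weeks with that at 2 weeks, limma called 46 members higher, where 57.0% of all tested genes were called higher, and the members' median change was 5.49 against 0.96 for all tested genes. Krtap7-1 gave 10.24 (SE 1.3, limma adjusted p = 7.49e-06) and Krtap8-1 10.17 (SE 1.6, limma adjusted p = 4.41e-05), the largest values among the members. Krtap3-2 gave the smallest value of the genes named here, 2.10 (SE 0.76, limma adjusted p = 0.0206), and was not called after median-of-ratios scaling (0.91, adjusted p = 0.359) or without WT replicate 3 of 8 weeks (1.56, adjusted p = 0.0885). The WT libraries enter this test with the fall between 2 and 8 weeks described above, and 17 of the 46 members passed the filter only because of WT at 2 weeks.

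At 10 weeks Krtap3-2 was the one member called between the genotypes. Limma called 1 member lower, Krtap3-2, and 0 higher, where 4.60% of all tested genes were called lower and 20.7% higher, and 2 members had an unadjusted p below 0.05. The members' median change was -0.05 and that of all tested genes 0.24. Krtap3-2 stood at 38.8, 34.4 and 24.5 FPKM in WT and at 10.9, 5.94, 3.02 and 6.94 FPKM in cKO, so its highest cKO library was below its lowest WT library. The change was -2.20 (SE 0.56, limma adjusted p = 0.00609), and it was called in every alternative tried, from -1.93 to -2.45. A count of calls near 0 does not show that the other members had the same level in both genotypes.

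Some members were also separated by library at 10 weeks without being called. The groups did not overlap, with cKO lower, for 8 members and for 11.2% of all tested genes. Krtap3-3 was among them at 11.9, 10.4 and 6.51 FPKM in WT against 5.82, 3.49, 1.75 and 3.52 FPKM in cKO (change -1.23, SE 0.56, limma adjusted p = 0.117), and so was Krtap3-1 at 1.17, 2.90 and 1.84 against 1.16 or less (change -0.87, SE 0.57, limma adjusted p = 0.283). The other 5, chosen after their values were seen, were Krtap20-2, Krtap8-2, Krtap6-2, Krtap31-1 and Krtap31-2, each with a WT mean below 1 FPKM. Receptor genes were above 0 for 34.9% to 74.2% of their number in WT of 10 weeks, against 4.42% to 7.26% in cKO. The part of this in the results at 10 weeks cannot be told apart from genotype, least of all for genes this close to 0. Replicate 1 of cKO stood above the other 3 cKO libraries for 35 of 46 members, and without Krtap3 its summed level was 51.2 FPKM against 1.40 to 5.10 in those and 7.55 to 12.7 in WT.

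Comparing the difference between genotypes at 10 weeks with that at 8 weeks, limma called 2 members lower, where 8.51% of all tested genes were called lower. They were Krtap3-1 (-3.32, SE 0.81, limma adjusted p = 0.0204) and Krtap3-3 (-2.92, SE 0.80, limma adjusted p = 0.0299). The count fell to 0 after median-of-ratios scaling or without WT replicate 2 of 10 weeks. It was 1 without WT replicate 1 or 3 of 8 weeks, WT replicate 1 of 10 weeks, or cKO replicate 2 or 3 of 10 weeks, and 23 without cKO replicate 2 of 8 weeks.

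The keratins that these proteins cross-link fell with the family at 2 weeks. Of 14 tested hair shaft keratins, 13 were called lower by limma in cKO at that age and 0 higher, where 27.1% of all tested genes were called lower. Krt83 stood at 90.2, 109, 148 and 94.0 FPKM in WT against 0.808, 0.0745, 1.06 and 0.134 FPKM in cKO (change -6.23, SE 0.52, limma adjusted p = 1.72e-08). Krt84, known from the filiform papillae of the tongue and from nail, was the one not called: it stood at 20.9, 18.9, 28.4 and 20.4 FPKM in WT and at 9.02, 27.4, 18.7 and 9.61 FPKM in cKO (change -0.55, SE 0.31, limma adjusted p = 0.151). Krt36, grouped with Krt84 as a gene of tongue and nail, was called lower (change -3.86, SE 0.30, limma adjusted p = 7.24e-09). It stood at 16.2, 14.9, 23.2 and 15.5 FPKM in WT and at 0.643, 0.0413, 0.448 and 0 FPKM in cKO. The highest cKO value of Krt84 at 2 weeks was in replicate 2, a library among the lowest for the Krtap genes.

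At 8 weeks 9 of the 14 hair shaft keratins were called higher by limma and 0 lower, a share near the 62.2% of all tested genes called higher, and at 10 weeks 0 were called. Their summed FPKM in cKO at 8 weeks was 27.7, 4.92, 178 and 51.6, with replicate 2 lowest and replicate 3 highest, as for the Krtap genes. In WT of that age it was 4.41 to 7.93. Krt35, an early keratin of the shaft, stood at 5.25, 1.33, 29.5 and 2.50 FPKM in cKO and 0.443, 0.0730 and 0.275 FPKM in WT (change 2.32, SE 0.62, limma adjusted p = 0.00313).

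Genes of the inner root sheath, the layer that surrounds and shapes the growing shaft, were lower in cKO at 2 weeks and higher at 8 weeks. All 9 tested were called in those directions by limma, where 27.1% and 62.2% of all tested genes were, and 0 were called at 10 weeks. Krt71 stood at 784, 730, 1083 and 841 FPKM in WT against 18.2, 2.69, 13.9 and 1.16 FPKM in cKO at 2 weeks (change -6.95, SE 0.86, limma adjusted p = 4.56e-06). At 8 weeks it stood at 54.5, 5.21, 133 and 20.9 FPKM in cKO and 0.279, 1.69 and 0.410 FPKM in WT (change 4.23, SE 0.93, limma adjusted p = 0.000737). Unlike Krtap8-1, Krt71 did not overlap between genotypes at 8 weeks, since cKO replicate 2 was above the WT libraries.

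Regulators of the hair matrix and cortex changed less uniformly. Of 15 tested, 10 were called lower and 1 higher at 2 weeks, 11 higher and 0 lower at 8 weeks, and 3 higher and 2 lower at 10 weeks by limma. Of all tested genes 27.1% were called lower and 17.7% higher at 2 weeks, and 4.60% were called lower at 10 weeks. At 8 weeks 62.2% were called higher and at 10 weeks 20.7%, so the counts of higher genes at these ages were close to the background. Hoxc13, a homeobox factor known to act on hair keratin and Krtap genes, had a mean of 24.4 ± 2.62 FPKM in WT (SD, n = 4) and stood at 0.813, 2.03, 1.92 and 1.49 FPKM in cKO at 2 weeks (change -3.33, SE 0.19, limma adjusted p = 8.52e-11). In cKO at 8 weeks it stood at 2.02, 2.47, 3.64 and 1.78 FPKM and in WT at 1.07, 1.17 and 0.428 FPKM (change 0.88, SE 0.21, limma adjusted p = 0.00139). Replicate 2 was second highest for Hoxc13 at 8 weeks, although it was lowest for 43 of the 46 Krtap genes. Gata3, which acts in the inner root sheath, was lower in cKO at 10 weeks (37.9, 48.9 and 36.4 FPKM in WT, 10.8, 17.7, 15.8 and 6.58 FPKM in cKO, change -1.69, SE 0.41, limma adjusted p = 0.00459). Vdr, named from this list by the same rule, went the other way at that age. It stood at 7.65, 10.1 and 6.78 FPKM in WT and at 22.1, 21.7, 22.5 and 12.5 FPKM in cKO.

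Other genes of the hair shaft were lower in cKO at 2 weeks. Of 12 tested, 11 were called lower and 0 higher at 2 weeks, 7 higher and 0 lower at 8 weeks, and 3 higher and 0 lower at 10 weeks. At 2 weeks 27.1% of all tested genes were called lower and 17.7% higher. The counts at 8 and 10 weeks were near the 62.2% and 20.7% of all tested genes called higher. Padi3, an enzyme that converts arginines of hair proteins to citrulline, stood at 45.4, 45.6, 61.4 and 49.3 FPKM in WT against 0.142, 0.211, 0.395 and 0.0570 FPKM in cKO at 2 weeks (change -5.42, SE 0.30, limma adjusted p = 4.38e-11). Of 6 tested basal keratinocyte genes, 1 was called higher and 1 lower at 2 weeks, and 6 were called higher at 8 weeks. Their summed FPKM was 4191 to 4346 in WT and 4658 to 7017 in cKO at 2 weeks, and 2129 to 3408 in WT and 5865 to 8142 in cKO at 8 weeks. By library the sums in cKO at 8 weeks were 5865, 5945, 8142 and 6388 FPKM. Replicate 2 was thus above every WT library of that age for the basal genes. Its summed Krtap level, 12.7 FPKM, was below every WT library of that age. The part of the basal genes in the Krtap result was not tested.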

How the data were processed

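The study sequenced RNA from mouse ears with single-end reads of 50 bases in 22 libraries. Values are FPKM per gene as deposited by the authors, 1 table per library; TopHat2 2.1.0, Cufflinks and the build mm9 are named per the submitters' processing notes, with no further parameters. The tables hold no counts, so intervals for counting error are not given. Tests used limma 3.58.1 in R 4.3.3 (lmFit, contrasts and eBayes with trend) on log2(FPKM + 1) in 1 fit of 6 groups, with Benjamini-Hochberg adjustment over 14139 genes and no further scaling, checked on simulated data. A mean ± SD is on FPKM. The 9 comparisons were the genotypes at each age, consecutive ages within WT and within cKO, and the change of the genotype difference between ages.

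The members, gene lists, tests and alternatives were chosen with earlier results of these data known. Genes were named by rule: per subfamily the 3 with the highest mean over all libraries, the 3 largest called falls and rises per genotype comparison, the 2 largest per interaction, and from each gene list the most changed called genes, of which some are given. Symbols were matched to RefSeq, promoters came from RefSeq on GRCm38.p6, and coding sequences from GENCODE M21 transcripts. Libraries of 1 group correlated at 0.874 to 0.977 over 30 pairs, and 0 pairs were identical. Replicate numbers were tested as pairs by correlating deviations from group means: every pair exceeded 0.1 for cKO at 2 against 8 weeks (0.111 to 0.735), where a replicate block called 0 members as before, and in no other comparison. The alternatives were another pseudocount, no filter or a filter of 5 FPKM, median-of-ratios scaling, array quality weights, only the groups compared, a replicate block, a minimum change, and leaving out each library or each group's library of lowest median.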

Additional observations from a re-analysis of the deposited data

Results flagged for a closer look

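Single libraries stood far from the rest of their group by Dixon's test, which marks about 1 in 20 groups by chance. In cKO at 10 weeks this was replicate 1 each time: the summed level was 69.1 FPKM, Krtap8-1 stood at 11.0, Krtap7-1 at 3.78, Krtap15 at 3.36, Krtap17-1 at 3.05, Krtap3-1 at 1.16 and Krtap6-1 at 0.624 FPKM. In cKO at 8 weeks replicate 3 stood apart for Krtap17-1 (13.6 FPKM) and Krtap4-1 (9.69 FPKM). In cKO at 2 weeks replicate 1 stood apart for Krtap3-1 (5.15 FPKM), and in WT at 2 weeks replicate 3 for Krtap15 (389 FPKM).

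The difference between genotypes changed with age by limma's interaction test. From 2 to 8 weeks it did so for 46 members, with changes of 10.24 for Krtap7-1 and 10.17 for Krtap8-1 on the log2 scale. Of all tested genes 57.0% were called higher in that test. Among the 46 members, 17 passed the filter only because of the WT libraries of 2 weeks, which enter it. From 8 to 10 weeks it did so for 2 members, Krtap3-1 (-3.32) and Krtap3-3 (-2.92), where 8.51% of all tested genes were called lower.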

How the results depend on the processing

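The count of called members kept within 1.5 times its value in every alternative for the genotypes at 2 weeks (41 to 48 against 46), WT at 8 against 2 weeks (41 to 48 against 46) and the genotype difference at 8 against 2 weeks (41 to 46 against 46). At 8 weeks the 34 calls became 19 with median-of-ratios scaling, 5 with array quality weights, 13 without each group's library of lowest median, 18 with only the groups compared and 19 to 41 when each library was left out. With median-of-ratios scaling all tested genes called higher at that age went from 8801 to 2152. At 10 weeks the 1 call became 2 with no filter, 2 with array quality weights and 6 with only the groups compared. For cKO at 8 against 2 weeks the 0 calls became 26 with array quality weights and 0 to 25 with a library left out. For cKO at 10 against 8 weeks the 15 calls became 4 with no filter, 24 with array quality weights, 0 without the libraries of lowest median, 0 with only the groups compared and 2 to 34 with a library left out. For the genotype difference at 10 against 8 weeks the 2 calls became 5 with a pseudocount of 0.1, 0 with median-of-ratios scaling, 1 without the libraries of lowest median, 0 with only the groups compared and 0 to 23 with a library left out. The causes were not tested.

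With a replicate block the counts were 46 at 2 weeks, 26 at 8 weeks, 3 at 10 weeks, 1 for WT at 10 against 8 weeks, 0 for cKO at 10 against 8 weeks and 0 for the genotype difference at 10 against 8 weeks. The labels give only replicate numbers, for cKO at 2 and 8 weeks as for the other groups. They do not say that samples of the same number belong together. For the 35 values of named members, 592 of 638 alternative values kept direction and call, 46 lost the call and 0 reversed. The tables hold no read counts, so the counting error of values near 0 is unknown.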
